A study of Mus musculus with 9 samples.

Results

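The 182 genes described here encode enzymes that process xenobiotics, steroids and other small lipophilic molecules. They are the protein-coding genes of the deposited table whose GENCODE M21 symbol places them in the Cyp, Ugt, Sult, Gst (alpha, mu, omega, pi and theta classes) or Ces family. They were taken from 54232 genes by symbol alone and comprise 100 Cyp, 22 Ugt, 21 Sult, 20 Gst and 19 Ces genes. The families were chosen with earlier results of these data known, so shares of members beside those of all genes are descriptive. RNA was measured in lacrimal glands, which secrete the aqueous part of the tear film, of female C57BL/6J mice fed ad libitum. The 3 groups were glands of mice aged 2 months, 12 months and 24 months, with 3 libraries at each age and 9 in all. All groups shared strain, sex, feeding and tissue, and age was the difference that the labels give. No label ties each library to a mouse of its own, so p-values reflect only how far these samples spread, and that spread may be technical.

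Cells make lipophilic compounds soluble in steps. Cytochrome P450 enzymes (Cyp) oxidise them with electrons from cytochrome P450 reductase, carboxylesterases (Ces) split their ester bonds, and transferases couple them to glucuronic acid (Ugt), sulfate (Sult) or glutathione (Gst) before transporters export the products. Individual P450s also make or break down steroid hormones, bile acids, vitamin D, retinoic acid and the oxidised fatty acids that act as local signals. Most of these families are best known from liver, but the airway, the nasal mucosa and exocrine glands carry their own subsets.

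Each library held 40516863 to 42573877 counts, and 14958 genes passed the count filter for testing. Transcripts of lacrimal acinar cells, the secretory cells of the gland, summed to 266400 to 459300 CPM (the count of a gene relative to a common library total, scaled by TMM) over a list of 7 genes, which is the tissue the labels give. Salivary gland transcripts summed to 808.7 CPM in 2-month replicate 3, 358.7 CPM in replicate 2 of the 12-month group, 244.3 CPM in replicate 2 of the 24-month group and to at most 68.97 CPM in the other 6 libraries; those 3 are called salivary-rich. Skeletal muscle transcripts summed to 28.57 and 56.35 CPM in 12-month replicates 1 and 3 (the muscle-holding libraries) and to at most 1.267 CPM elsewhere. Hepatocyte markers summed to at most 0.6507 CPM, with 1 of 8 tested. Of the 6 markers of lipid-secreting eye glands (meibomian, harderian), Elovl3 measured 5.07 and 1.19 CPM in 24-month replicates 2 and 3 (the Elovl3-high libraries) and at most 0.157 CPM in the other 7 libraries. Cidea measured 4.13 and 2.15 CPM in those 2 libraries and at most 1.03 CPM elsewhere. Fabp5 measured 23.59 and 15.08 CPM there and at most 12.55 CPM elsewhere. Far2 measured 2.957 and 0.926 CPM there and up to 1.197 CPM elsewhere, so that only replicate 2 stood out. Awat2 (0.298 and 0.483 CPM) lay within its range elsewhere (0.170 to 0.940 CPM), and Soat1 was lowest there (90.09 and 80.8 CPM). The list did not move as a whole, and its sum, mostly Soat1, was 100.2 to 126.1 CPM in all 9. Duct epithelium markers summed to 670.9 to 886.8 CPM, endothelial markers to 23.95 to 35.82 CPM and markers of adrenal or gonad steroid cells to 1.591 to 2.213 CPM, with Hsd3b1 at 0. The steroid cell sum was nearly all Star, the 1 of those 6 genes that was tested. Cyp11b1, Cyp21a1, Nr5a1 and Lhcgr had 1, 2, 1 and 1 counts over all libraries. Fewer cells of a type and less RNA per cell cannot be told apart in bulk tissue.

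The gland transcribed a restricted part of the 5 families. Of the 182 genes, 50 had 0 counts in every library, 77 had some counts but too few to be tested, and 55 were tested. A count of 0 allows up to 3 counts in a library, and this limit covers counting error only. Genes that share sequence with another may be undercounted, which was not tested. Of the 100-base stretches of Gsta1, Cyp3a41a and Ugt2a1, all at 0 counts, 80.58%, 90.82% and 94.94% also occur in another gene. The glutathione transferases were the most completely represented family, with 17 of 20 tested and Gsta1 the 1 member at 0 counts throughout. Cyp genes followed with 28 of 100 tested and 24 at 0, then Ces genes with 5 of 19 tested and 6 at 0, and Sult genes with 4 of 21 tested and 8 at 0. The glucuronosyltransferases held few counts, with 1 of 22 tested and 11 at 0. All genes of the 5 families together accounted for 0.2241 to 0.4156% of each library's counts.

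Most of that small share came from few genes, and the levels named here are CPM per kilobase of exon over the 9 libraries. Cyp2f2, which oxidises naphthalene in the club cells of the mouse airway, led with 473.6, followed by Cyp2a5, which oxidises coumarin and nicotine, with 256.7. The mu-class transferases Gstm1 and Gstm2 reached 128.4 and 66.0, the carboxylesterase Ces1d 54.6 and the alpha-class transferase Gsta3 46.1. Ces1e, known in mouse liver as egasyn, the anchor of beta-glucuronidase in the endoplasmic reticulum, stood at 30.2, Cyp2b10 at 23.6 and Gstp1 at 17.96. Cyp2f2 and Cyp2a5 together held 51.4 to 69.21% of the counts of the 182 genes. The 7 members with the most counts, those 2 with Gsta3, Gstm1, Ces1d, Gstm2 and Ces1e, held 84.88 to 89.92%.

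**Figure D1:**
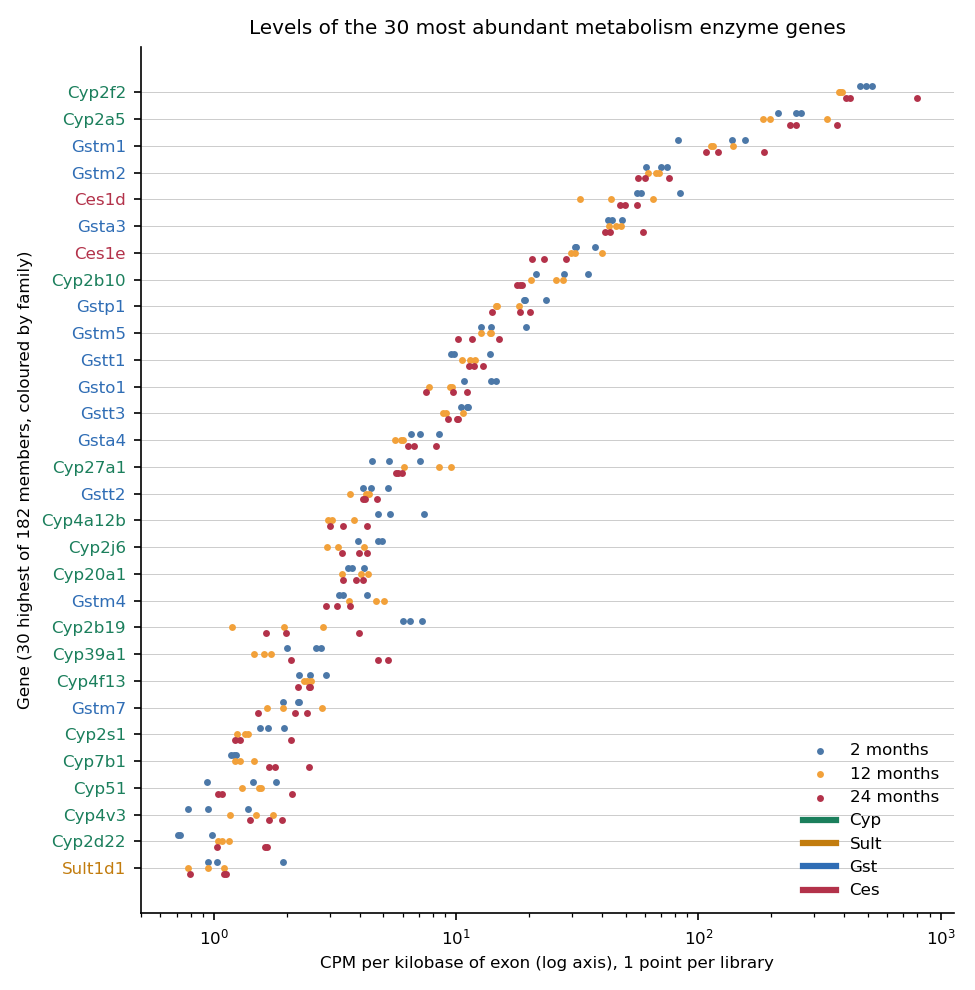
Level of the 30 most abundant of the 182 genes in each library, in CPM per kilobase of exon on a log axis, with gene names coloured by family and points by age. Cyp2f2 (mean 473.6) and Cyp2a5 (256.7) stand to the right of all others, and the points of the 3 ages overlap for most genes.

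Neither of the leading genes passed a comparison of ages. Cyp2f2 (ENSMUSG00000052974, chr7:27119909-27133660 on GRCm38) measured 942, 1049 and 999.0 CPM in the 2-month libraries, 792, 781 and 770 CPM in the 12-month libraries and 826, 859 and 1614 CPM in the 24-month libraries. The 12-month values lay below all 2-month values, and 24-month replicate 3 stood far above its age group. The edgeR adjusted p of Cyp2f2 was 0.373 for 12 against 2 months, 0.709 for 24 against 2 months and 0.246 for 24 against 12 months, and the last was 0.0208 with no filter on low counts. The fit without that filter gave some members far smaller adjusted p at nearly the same fold change. The 24 against 2 month log2 fold change of Cyp2f2 was 0.14 with all libraries and -0.24 without 24-month replicate 3. Cyp2a5 (ENSMUSG00000005547, chr7:26835305-26843548) measured 442, 548 and 522 CPM at 2 months, 700, 382 and 408 CPM at 12 months and 494, 522 and 771 CPM at 24 months. Its ages overlapped in every comparison, and the highest value was again that of 24-month replicate 3. That library held the highest value of 17 of the 55 tested members (30.91%), against 15.1% of all genes tested.

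Cyp2f2 and Cyp2a5 lie in 1 gene cluster on chromosome 7 (GRCm38, chr7:25802475-27158668) that holds 13 Cyp2 genes over 1356 kb. Of the 13, 6 were tested: Cyp2s1, Cyp2b10, Cyp2a4, Cyp2b19, Cyp2a5 and Cyp2f2. Neighbouring genes differed widely, since Cyp2a22 and Cyp2a12, which lie between Cyp2a5 and Cyp2f2, had 1 count each over all 9 libraries. Reads can be shared between copies here: 12.1% of the 100-base stretches of Cyp2a5 also occur in another gene, chiefly Cyp2a4, so the level of Cyp2a4 (0.73 CPM per kilobase) is uncertain. Exons of Cyp2f2 overlap those of Gm15883 over 13.5% of their length. The mu-class glutathione transferase cluster on chromosome 3 (chr3:107895821-108044894) contrasted with this pattern, with 7 of 7 genes tested. Its levels still ran from 0.163 CPM per kilobase for Gstm3 to 128.4 for Gstm1.

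**Figure D2:**
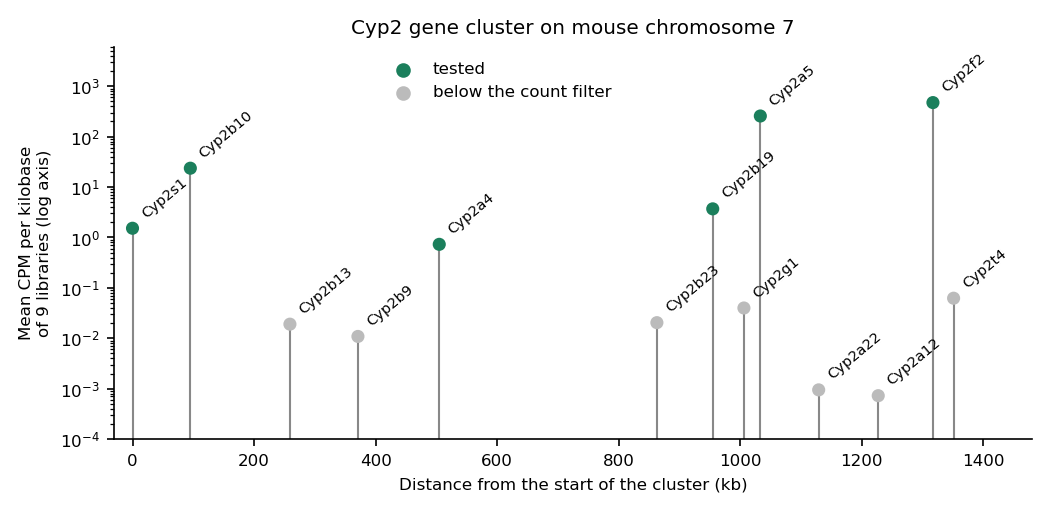
Mean level of 13 Cyp2 genes over 9 libraries (CPM per kilobase, log axis) against distance from the start of their cluster on chromosome 7. The 6 tested genes are coloured and the rest, below the count filter, are grey; Cyp2f2 at 473.6 and Cyp2a5 at 256.7 flank 2 genes of 1 count each.

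Several branches of the families were at or near 0. None of the 9 Cyp3 genes, 15 Cyp2c genes, 9 Ugt1a genes, 10 Ugt2 genes or 9 Sult2 genes was tested, and those sets held 18 (Cyp3), 21 (Cyp2c), 153 (Ugt1a), 10 (Ugt2) and 37 (Sult2) counts over all libraries. Of the Ugt1a counts, 83 belonged to Ugt1a8, with 72 and 10 of them in 24-month replicates 2 and 3, the Elovl3-high libraries. The Ugt1a genes share their last exons, so reads there cannot be assigned to 1 of them. Cyp1a1, the P450 most strongly induced through the aryl hydrocarbon receptor in mouse liver, was below the filter, and Cyp1b1 was the 1 tested gene of the Cyp1 group.

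The steroid part of the set was not represented by hormone synthesis. The P450s that make steroid hormones (Cyp11a1, Cyp11b1, Cyp11b2, Cyp17a1, Cyp19a1 and Cyp21a1) held 29 counts in all 9 libraries together, and none was tested. Cyp11a1, which cleaves the side chain of cholesterol at the start of steroid synthesis, had 0 counts in each 2-month library, 0, 3 and 5 in the 12-month libraries and 1, 1 and 14 in the 24-month libraries. Cyp19a1, the aromatase, had 1 count in all, as had Cyp17a1. The P450s of sterol and bile acid metabolism were present: Cyp27a1 reached 6.47 CPM per kilobase, Cyp39a1 2.69, Cyp7b1 1.501, Cyp51 1.42 and Cyp46a1 1.07. Of the vitamin D enzymes, Cyp27b1, which activates the hormone, had 3 to 15 counts per library and Cyp24a1, which inactivates it, 0 to 2.

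Age was compared over all 14958 tested genes in 1 model, and a gene passed where its adjusted p was under 0.05 (edgeR quasi-likelihood test, Benjamini-Hochberg adjustment). Between 12 and 2 months 3 members rose (5.45% of the 55 tested, against 5.4% of all genes) and 4 fell (7.27% against 2.52%), together 12.7% against 7.92%. Between 24 and 2 months 9 rose and 4 fell, 23.6% of the 55 against 17.4% of all genes. By direction, 16.4% of members against 9.81% of all genes rose and 7.27% against 7.55% fell. Between 24 and 12 months 2 rose (3.64% against 2.79% of all genes) and 0 fell (against 1.6%), together 3.64% against 4.39%. At an unadjusted p under 0.05 the members numbered 19 (34.5% against 23.1% of all genes) for 12 against 2 months, 21 (38.2% against 31.6%) for 24 against 2 months and 11 (20% against 18.9%) for 24 against 12 months. Of the genes to which DESeq2 gave an adjusted p, it called 10 of 64 members (15.6% against 10.3% of all genes), 18 of 64 (28.1% against 17.4%) and 4 of 52 (7.69% against 8.45%) in that order. The median log2 fold change of the tested members was -0.01, 0.06 and 0.12, beside 0.01, 0.01 and -0.02 over all tested genes. The 3 comparisons share libraries and are not independent. Full separation of 2 ages was common over all tested genes. Between 12 and 2 months the older libraries lay all above in 9.09% of members (15.1% of all genes) and all below in 16.4% (12.4%). For 24 against 2 months the shares were 23.6% (18.4%) above and 10.9% (16.6%) below. For 24 against 12 months they were 14.5% (12.1%) above and 7.27% (12.6%) below. In all, 17 members passed at least 1 comparison (30.9% of the 55 against 21% of all genes): 11 Cyp, 2 Sult, 2 Gst and 2 Ces genes.

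The split by direction depended on the scaling. With library totals alone in place of TMM, the median of all genes moved to 0.31 for 12 against 2 months and 0.31 for 24 against 2 months. The members then gave 7 higher and 1 lower between 12 and 2 months (12.7% higher and 1.82% lower, against 10.8% and 0.535% of all genes). Between 24 and 2 months they gave 13 higher and 1 lower (23.6% and 1.82%, against 17.5% and 1.28% of all genes), and between 24 and 12 months 0 (against 2.27%). Cyp2b19 was the lower one each time. The other decreases (Cyp4a12b, Sult5a1, Gsto1, Cyp2b10 and Ces1e) had edgeR adjusted p of 0.0940 to 0.343 under that scaling, and the increases of Cyp39a1 and Sult5a1 between 24 and 12 months had 0.0535 and 0.143. Without the 3 salivary-rich libraries, with 2 libraries left at each age, the calls that held were Cyp26b1, Cyp1b1, Ces2g and Cyp2b19 between 24 and 2 months and Cyp2b19 between 12 and 2 months. Without the 2 muscle-holding libraries, 1 library was left at 12 months and assumed to vary like the other ages. It was the salivary-rich replicate 2, so this alternative does not vary muscle alone. Between 12 and 2 months the log2 fold change was then 2.37 for Cyp26b1, 2.27 for Cyp1b1 and -2.47 for Cyp2b19. It was 1.93 for Cyp4f15 and -0.62 for Cyp4a12b. For Cyp39a1 between 24 and 12 months it was 1.24. Without the 2 Elovl3-high libraries, an alternative chosen after seeing the data that leaves 1 library at 24 months under the same assumption, Cyp26b1 and Cyp2b19 held between 24 and 2 months and 0 members between 24 and 12 months.

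**Figure D3:**
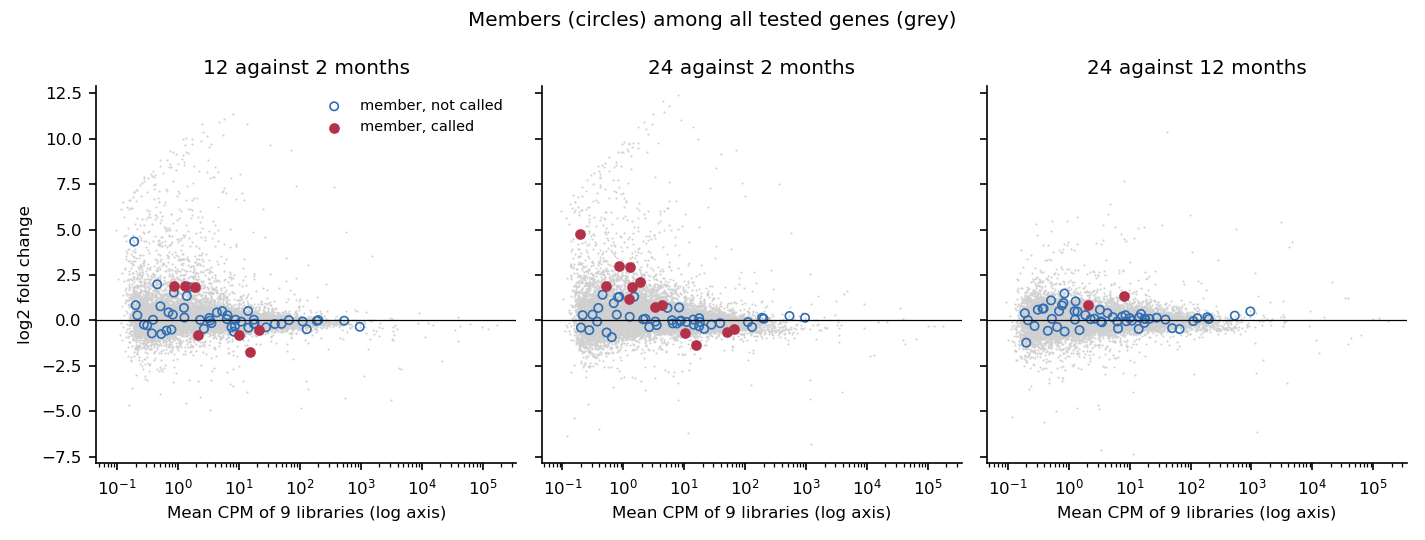
log2 fold change of each tested gene against its mean CPM over 9 libraries (log axis) in the 3 comparisons of ages, with all genes in grey, members that did not pass the test as open circles and members that passed as filled circles. The 7, 13 and 2 filled circles all lie below a mean of 70 CPM, and the members above 100 CPM lie between the -0.48 of Ces1d (12 against 2 months) and the 0.49 of Cyp2f2 (24 against 12 months), without passing.

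Markers of other cell types moved with age beside these calls. Of 10 macrophage markers, 10 rose between 24 and 2 months, and their sum was 67.03 to 98.9 CPM at 2 months, 195 to 260 CPM at 12 months and 265.3 to 374 CPM at 24 months. Adipocyte markers summed to 6.959 to 8.869 CPM at 2 months, 18.27 to 46.94 CPM at 12 months and 18.12 to 40.09 CPM at 24 months, with 8 of 12 higher at 24 than at 2 months and 9 of 12 higher at 12 than at 2 months. Fibroblast markers summed to 79.48 to 143.4 CPM at 2 months, 89.73 to 103.4 CPM at 12 months and 136.6 to 218.9 CPM at 24 months, with 4 of 7 higher at 24 than at 2 months and 0 of 7 at 12 than at 2 months. All 8 B cell and all 8 T cell markers were higher at 12 than at 2 months, 7 of 8 and 8 of 8 were higher at 24 than at 2 months, and 5 B cell markers were lower at 24 than at 12 months. B cell markers summed to 0.4111 to 0.7073 CPM at 2 months, 113.9, 172 and 19.16 CPM at 12 months and 15.16 to 27.73 CPM at 24 months, with 12-month replicate 3 far below its age group. T cell markers summed to 1.086 to 1.644 CPM at 2 months, 8.226 to 30.91 CPM at 12 months and 9.952 to 20.16 CPM at 24 months. None of these lists had a gene at 0 in all libraries. Their part in the changes of the metabolism genes was not tested.

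The promoters of 4 members are shown, since the calls of these genes held with each compared library left out in turn (Cyp26b1, Cyp1b1 and Ces2g between 24 and 2 months, Cyp2b19 between 12 and 2 months) and under the other alternatives run, with 1 exception. Without the 2 Elovl3-high libraries the edgeR adjusted p was 0.0159 for Cyp26b1, 0.245 for Cyp1b1 (log2 fold change 1.27 in place of 2.11) and 0.0881 for Ces2g. The sequences are RefSeq's for GRCm38.p6 and run 5′ to 3′ on the strand of the gene from 250 bases before the transcript start to 50 after it. Cyp26b1 (ENSMUSG00000063415) lies on the minus strand with its window at chr6:84593761-84594060, Cyp1b1 (ENSMUSG00000024087) on the minus strand at chr17:79715012-79715311, Ces2g (ENSMUSG00000031877) on the plus strand at chr8:104961468-104961767 and Cyp2b19 (ENSMUSG00000066704) on the plus strand at chr7:26756892-26757191. Capitals mark a match to a searched motif.
Cyp26b1: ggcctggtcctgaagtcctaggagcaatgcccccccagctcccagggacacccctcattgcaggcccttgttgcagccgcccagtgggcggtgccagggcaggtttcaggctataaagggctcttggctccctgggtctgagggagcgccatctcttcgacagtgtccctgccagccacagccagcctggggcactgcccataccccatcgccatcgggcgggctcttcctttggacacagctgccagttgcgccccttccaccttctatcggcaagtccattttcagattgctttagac
Cyp1b1: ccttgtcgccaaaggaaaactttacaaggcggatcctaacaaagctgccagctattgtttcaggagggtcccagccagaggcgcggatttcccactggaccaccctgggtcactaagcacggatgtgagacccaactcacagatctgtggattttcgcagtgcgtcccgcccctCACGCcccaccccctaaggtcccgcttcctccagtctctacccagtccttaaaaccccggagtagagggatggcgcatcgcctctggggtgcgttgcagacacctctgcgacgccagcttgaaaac
Ces2g: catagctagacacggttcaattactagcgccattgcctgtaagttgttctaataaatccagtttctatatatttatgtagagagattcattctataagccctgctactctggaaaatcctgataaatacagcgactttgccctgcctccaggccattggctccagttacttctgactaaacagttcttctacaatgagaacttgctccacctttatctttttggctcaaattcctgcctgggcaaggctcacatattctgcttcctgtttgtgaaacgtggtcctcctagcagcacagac
Cyp2b19: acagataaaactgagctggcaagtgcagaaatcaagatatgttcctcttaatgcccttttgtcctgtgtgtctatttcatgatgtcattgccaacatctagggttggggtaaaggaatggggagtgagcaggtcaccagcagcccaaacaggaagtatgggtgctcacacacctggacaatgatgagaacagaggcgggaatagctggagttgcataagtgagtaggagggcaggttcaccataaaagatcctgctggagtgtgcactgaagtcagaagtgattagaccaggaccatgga
The motifs were the core of the xenobiotic response element, GCGTG, to which the aryl hydrocarbon receptor binds, the antioxidant response element, TGACNNNGC, to which Nrf2 binds, and the DR5 retinoic acid response element, each on both strands. The only match in the 4 windows was the xenobiotic core on the reverse strand of Cyp1b1, at bases 175 to 179 and position -76 from the start. That core occurs in 32.39% of the 32851 RefSeq promoter windows of this length and in 19.64% of the 168 windows of the families (147 genes matched). In the 52 windows of tested members its share was 32.69%, near that of all windows. The antioxidant motif occurs in 12.39% of all windows, 5.952% of the family windows and 9.615% of those of tested members. The DR5 element occurs in 0.09741% of all windows and in 1 of the 168 family windows, that of Cyp26a1. A match is a description of the letters, and binding was not measured.

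Cyp26b1, which breaks down retinoic acid, rose with age. It measured 0.249, 0.294 and 0.396 CPM at 2 months, 0.429, 1.64 and 1.43 CPM at 12 months and 3.09, 1.72 and 2.46 CPM at 24 months. Every 24-month library lay above every 12-month library, and every 12-month library above every 2-month library. The counts behind these levels were small, from 10 to 122 per library. The log2 fold change between 24 and 2 months was 2.94 (SE 0.49, edgeR adjusted p = 0.00279), and between 12 and 2 months it was 1.90 (SE 0.49, edgeR adjusted p = 0.0342). The difference between 24 and 12 months, 1.05 (SE 0.43), did not pass (edgeR adjusted p = 0.206). Leaving out 1 library kept the 24 against 2 month call each time (log2 fold change 2.73 to 3.15). The 12 against 2 month call held only without 12-month replicate 1, and the edgeR adjusted p was 0.0918, 0.121 and 0.0761 without 2-month replicates 1, 2 and 3 and 0.156 and 0.0725 without 12-month replicates 2 and 3. Of the other retinoic acid hydroxylases, Cyp26a1 had 0 to 6 counts per library and Cyp26c1 had 0 in all.

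Cyp1b1, which oxidises oestrogens and aromatic hydrocarbons outside the liver, also rose. Its levels were 0.573, 0.382 and 0.962 CPM at 2 months, 1.56, 3.11 and 2.09 CPM at 12 months and 1.54, 2.89 and 3.83 CPM at 24 months. Both older ages lay wholly above 2 months and overlapped each other. The log2 fold change was 2.11 (SE 0.43, edgeR adjusted p = 0.00697) between 24 and 2 months and 1.81 (SE 0.43, edgeR adjusted p = 0.0230) between 12 and 2 months. With each library left out, the 24 against 2 month value ran from 1.80 to 2.52 and stayed called. The 12 against 2 month call was lost without 2-month replicate 1, 2-month replicate 2 or 12-month replicate 2 (edgeR adjusted p = 0.0661, 0.102 and 0.110).

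**Figure D4:**
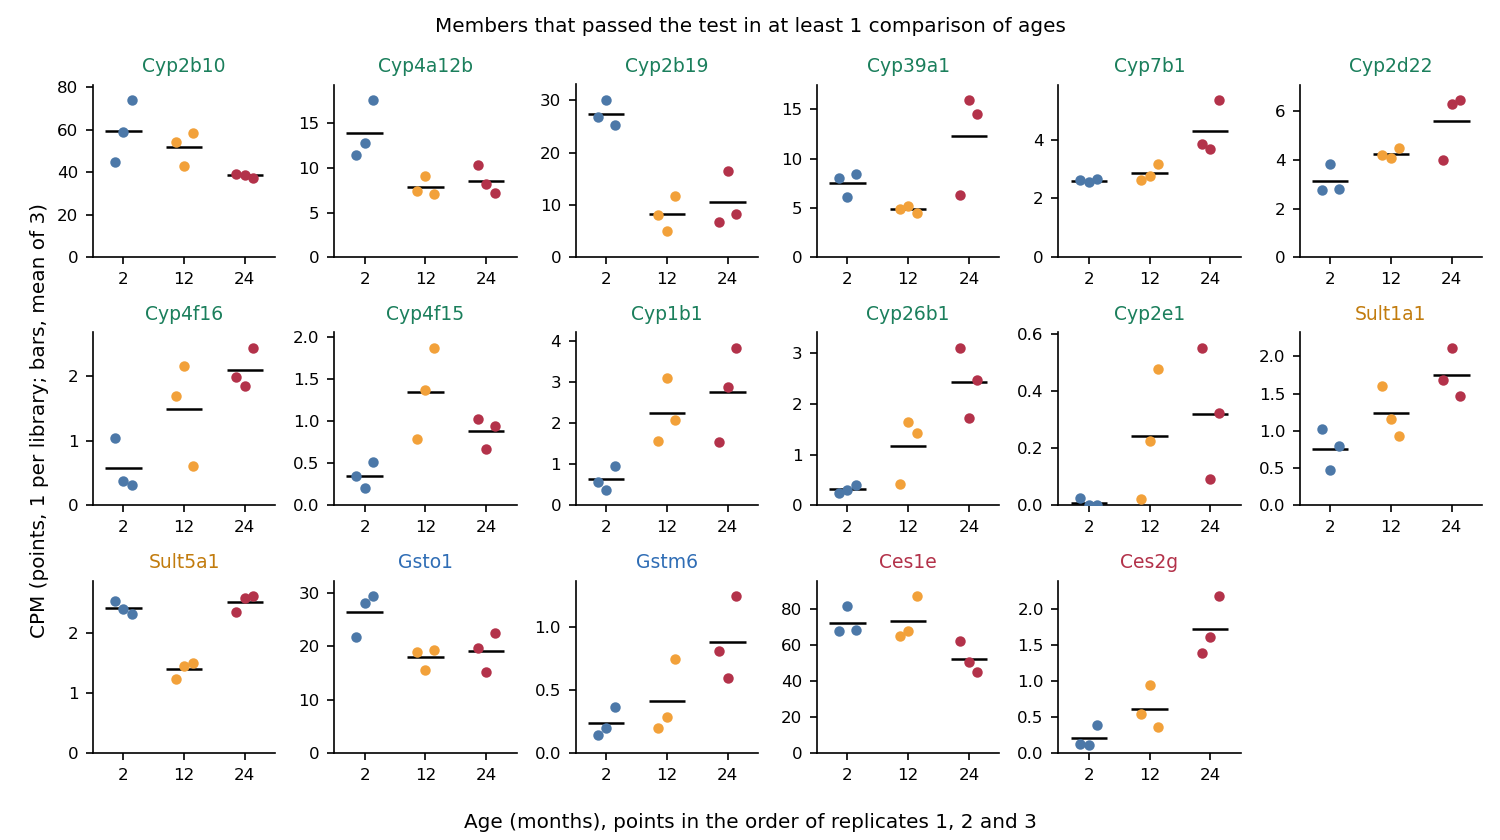
CPM of the 17 members that passed the test in at least 1 comparison, with 1 panel per gene, 1 point per library and a bar at the mean of 3, at 2, 12 and 24 months. In Cyp26b1, Cyp1b1 and Ces2g the 24-month points lie above all 2-month points, in Cyp2b19 both older ages lie below 2 months (27.3 CPM on average), and Sult5a1 is low at 12 months alone.

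Among carboxylesterases, the weakly transcribed Ces2g rose and the abundant Ces1e fell at 24 months. Ces2g measured 0.125, 0.117 and 0.396 CPM at 2 months, 0.542, 0.940 and 0.364 CPM at 12 months and 1.39, 1.60 and 2.17 CPM at 24 months. Its 24-month libraries lay above all others. The log2 fold change between 24 and 2 months was 3.01 (SE 0.53, edgeR adjusted p = 0.00366) and ran from 2.73 to 3.80 with each library left out, the highest without 2-month replicate 3. Neither 12 against 2 months (1.53, SE 0.54, edgeR adjusted p = 0.107) nor 24 against 12 months (1.48, SE 0.47, edgeR adjusted p = 0.103) passed.

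Ces1e measured 67.8, 81.5 and 68.2 CPM at 2 months, 65.1, 67.7 and 87.1 CPM at 12 months and 62.2, 50.4 and 44.98 CPM at 24 months, and its 24-month libraries lay below all others. It fell by 0.47 on the log2 scale between 24 and 2 months (SE 0.14, edgeR adjusted p = 0.0444), a call that held only without 24-month replicate 1. Without 2-month replicates 1, 2 and 3 its edgeR adjusted p was 0.0592, 0.164 and 0.0817, and without 24-month replicates 2 and 3 it was 0.123 and 0.156. Ces1d, the most abundant carboxylesterase, which hydrolyses stored triglyceride in liver and fat, measured 132, 198 and 137 CPM at 2 months, 76.8, 104 and 153 CPM at 12 months and 118, 113 and 132 CPM at 24 months. Its ages overlapped in every comparison and none passed, although 12 against 2 months passed without 12-month replicate 3 (log2 fold change -0.80, edgeR adjusted p = 0.0248). The remaining tested carboxylesterases, Ces1f and Ces2e, stayed below 1.5 CPM and did not pass. The summed level of the family was 230 ± 44.9 CPM at 2 months, 186 ± 50.8 CPM at 12 months and 177 ± 9.45 CPM at 24 months (SD, n = 3 each).

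Of the Cyp2 genes, Cyp2b19 showed the clearest decrease. This gene, known in mouse skin as an arachidonic acid epoxygenase, measured 26.8, 29.98 and 25.2 CPM at 2 months, 8.13, 4.95 and 11.8 CPM at 12 months and 6.83, 16.6 and 8.30 CPM at 24 months. Every older library lay below every 2-month library, and the older ages overlapped. It fell by 1.73 on the log2 scale between 12 and 2 months (SE 0.32, edgeR adjusted p = 0.00733), with -2.07 to -1.46 when each library was left out. Between 24 and 2 months it fell by 1.37 (SE 0.32, edgeR adjusted p = 0.0129), and this call was lost without 2-month replicate 2 (edgeR adjusted p = 0.0545) or 24-month replicate 3 (edgeR adjusted p = 0.0519).

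Cyp2b10, the mouse P450 that phenobarbital induces through the receptor CAR, lies in the same cluster and fell between 24 and 2 months. It measured 45.04, 58.8 and 73.9 CPM at 2 months, 54.5, 43.0 and 58.4 CPM at 12 months and 39.4, 38.8 and 37.5 CPM at 24 months, with the 24-month libraries below all others. The fall between 24 and 2 months was 0.62 on the log2 scale (-0.62, SE 0.16, edgeR adjusted p = 0.0214). Its call was lost without 2-month replicates 2 or 3 (edgeR adjusted p = 0.0661 and 0.0937) or 24-month replicates 2 or 3 (edgeR adjusted p = 0.0578 and 0.0675). Transcripts of CAR itself (Nr1i3) were below the count filter. Cyp2s1 and Cyp2a4, the remaining tested genes of the cluster, did not pass in any comparison.

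Cyp2d22, which corresponds to human CYP2D6, measured 2.77, 3.85 and 2.83 CPM at 2 months, 4.20, 4.07 and 4.50 CPM at 12 months and 4.01, 6.33 and 6.46 CPM at 24 months. Both older ages lay above 2 months, and the difference passed between 24 and 2 months (log2 fold change 0.83, SE 0.21, edgeR adjusted p = 0.0196). The call was lost without 2-month replicates 1 or 3 (edgeR adjusted p = 0.0579 and 0.0739) or 24-month replicates 2 or 3 (edgeR adjusted p = 0.0676 and 0.0793). Cyp2e1, which oxidises ethanol and small solvents, was counted 1, 0 and 0 times in the 2-month libraries, 1, 11 and 21 times in the 12-month libraries and 21, 4 and 16 times in the 24-month libraries. Scaled for library size, the ratio between 24 and 2 months was 34.2 (95% counting interval 5.80 to 1382), and it passed (edgeR adjusted p = 0.0319). Of the 6 libraries, only leaving out 24-month replicate 2 kept that call. The fitted log2 fold change was 4.74 with all libraries, 6.77 without 2-month replicate 1, which held the 1 count of its age, and 4.14 without 24-month replicate 1. Without 2-month replicates 1, 2 and 3 the edgeR adjusted p was 0.0612, 0.115 and 0.104, and without 24-month replicates 1 and 3 it was 0.0803 and 0.0701. Adipocyte markers summed to 8.87, 6.96 and 8.29 CPM in the 2-month libraries, 18.3, 46.9 and 44.7 CPM in the 12-month libraries and 27, 40.1 and 18.1 CPM in the 24-month libraries. The 12-month library with the lowest sum had the lowest Cyp2e1 count of its age, while at 24 months the lowest count was in the library with the highest sum. The part of fat tissue in its counts was not tested.

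The Cyp4 genes, which hydroxylate fatty acids at the end of the chain, moved in both directions. Cyp4a12b measured 11.4, 12.8 and 17.5 CPM at 2 months, 7.38, 9.08 and 7.07 CPM at 12 months and 10.3, 8.18 and 7.21 CPM at 24 months, so that both older ages lay below 2 months. It fell by 0.82 on the log2 scale between 12 and 2 months (SE 0.18, edgeR adjusted p = 0.0175) and by 0.70 between 24 and 2 months (SE 0.18, edgeR adjusted p = 0.0215). The first of these calls was lost without 2-month replicate 3 (edgeR adjusted p = 0.0751) or 12-month replicate 1 (0.0643). The other was lost without 2-month replicate 3 (edgeR adjusted p = 0.0952), 24-month replicate 2 (0.0661) or 24-month replicate 3 (0.0810). With library totals alone neither passed (edgeR adjusted p = 0.0940 and 0.136). Of its 100-base stretches 36.2% also occur in another gene, chiefly Cyp4a12a, which was counted 1 to 6 times per library, so the split between the copies is uncertain.

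Cyp4f15 and Cyp4f16, from the Cyp4f cluster of chromosome 17, each rose in 1 comparison with 2 months. Cyp4f15 measured 0.349, 0.205 and 0.509 CPM at 2 months, 0.790, 1.37 and 1.86 CPM at 12 months and 1.021, 0.665 and 0.946 CPM at 24 months. Both older ages lay above 2 months, and Cyp4f15 rose between 12 and 2 months (log2 fold change 1.91, SE 0.45, edgeR adjusted p = 0.0227), while 24 against 2 months did not pass (1.30, SE 0.45, edgeR adjusted p = 0.0668). The call was lost without 2-month replicates 1 or 2 (edgeR adjusted p = 0.0575 and 0.0937) or 12-month replicates 2 or 3 (edgeR adjusted p = 0.0812 and 0.0666). Cyp4f16 measured 1.05, 0.382 and 0.311 CPM at 2 months, 1.69, 2.17 and 0.614 CPM at 12 months and 1.99, 1.86 and 2.44 CPM at 24 months. It rose between 24 and 2 months (log2 fold change 1.83, SE 0.51, edgeR adjusted p = 0.0286), and its 12-month libraries spread over both other ages. Without 2-month replicate 1 the log2 fold change was 2.59. The call was lost without 2-month replicates 2 or 3 (edgeR adjusted p = 0.115 and 0.104) or 24-month replicates 2 or 3 (edgeR adjusted p = 0.0506 and 0.0817). Cyp4f13, from the same cluster, was the steadiest of all tested members, at 9.91 to 12.9 CPM over the 9 libraries (coefficient of variation 8.18%).

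Among the P450s of sterols, 2 oxysterol hydroxylases each rose in 1 comparison. Cyp39a1 measured 8.02, 6.11 and 8.40 CPM at 2 months, 4.92, 5.25 and 4.45 CPM at 12 months and 6.36, 15.9 and 14.5 CPM at 24 months. The 12-month libraries lay below all others, and 24-month replicate 1 stayed within the 2-month range. The high values were those of the 2 Elovl3-high libraries, without which the 24 against 12 month log2 fold change was 0.39 (edgeR adjusted p = 0.545) and the 24 against 2 month one -0.24. Cyp39a1 rose between 24 and 12 months (log2 fold change 1.33, SE 0.27, edgeR adjusted p = 0.0170), and 24 against 2 months did not pass (0.71, SE 0.27, edgeR adjusted p = 0.0887). The call was lost without 12-month replicate 1 (edgeR adjusted p = 0.0646), 24-month replicate 2 (0.0597) or 24-month replicate 3 (0.0555). Cyp7b1 measured 2.62, 2.56 and 2.66 CPM at 2 months, 2.64, 2.76 and 3.18 CPM at 12 months and 3.85, 3.67 and 5.34 CPM at 24 months, with the 24-month libraries above all others. It rose between 24 and 2 months (log2 fold change 0.72, SE 0.20, edgeR adjusted p = 0.0288), a call lost without 2-month replicates 1, 2 or 3 (edgeR adjusted p = 0.0585, 0.0867 and 0.0755) or 24-month replicate 3 (0.132).

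Cyp27a1, which starts the acidic route of bile acid synthesis, averaged 12.2 ± 2.89 CPM at 2 months, 17.4 ± 3.82 CPM at 12 months and 12.6 ± 0.339 CPM at 24 months (SD, n = 3 each) and passed no comparison. Cyp51, the demethylase of cholesterol synthesis, averaged 6.16 ± 1.93, 6.49 ± 0.622 and 6.19 ± 2.65 CPM in the same order. Cyp46a1, the cholesterol hydroxylase of neurons, averaged 3.86 ± 0.797 CPM at 2 months and, at the older ages, 3.48 ± 0.432 CPM (12 months) and 3.24 ± 0.527 CPM (24 months). Neither passed. Summed over the family, the Cyp genes gave 1694 ± 113 CPM at 2 months, 1445 ± 184 CPM at 12 months and 1861 ± 604 CPM at 24 months.

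Of 17 glutathione transferases tested, 1 rose and 1 fell in any comparison, where 21% of all tested genes passed at least 1. The summed level was 671 ± 91.6 CPM at 2 months, 638 ± 46.3 CPM at 12 months and 674 ± 86.2 CPM at 24 months (SD, n = 3 each). Gstm2 spread by a coefficient of variation of 10.1% over the 9 libraries, Gsta3 by 12.1% and Gstt3 by 8.66%. Gstm1 ranged more widely, from 121 to 228 CPM at 2 months, 166 to 205 CPM at 12 months and 158 to 274 CPM at 24 months, and the ages overlapped throughout. Gsto1, which reduces dehydroascorbate, measured 21.8, 28.1 and 29.4 CPM at 2 months, 19.1, 15.6 and 19.4 CPM at 12 months and 19.7, 15.2 and 22.4 CPM at 24 months. It fell by 0.55 on the log2 scale between 12 and 2 months (SE 0.15, edgeR adjusted p = 0.0479), with the 12-month libraries below all 2-month libraries. That call held only without 2-month replicate 1, and the edgeR adjusted p was 0.161 and 0.162 without 2-month replicates 2 and 3 and 0.0899, 0.207 and 0.0554 without 12-month replicates 1, 2 and 3.

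Gstm6, named here after its values were seen, measured 0.149, 0.205 and 0.368 CPM at 2 months, 0.203, 0.286 and 0.750 CPM at 12 months and 0.812, 0.596 and 1.25 CPM at 24 months. It rose between 24 and 2 months (log2 fold change 1.88, SE 0.59, edgeR adjusted p = 0.0464), and the edgeR adjusted p was 0.0565 to 0.173 with any of the 6 libraries left out. Gsta4, which conjugates aldehydes from lipid peroxidation, averaged 9.30 ± 1.31 CPM at 2 months, 7.39 ± 0.307 CPM at 12 months and 8.98 ± 1.26 CPM at 24 months (SD, n = 3 each) and passed no comparison. Gstp1, a broad detoxifier of electrophiles, averaged 31.9 ± 3.75, 24.5 ± 3.05 and 27.1 ± 4.80 CPM in the same order and passed none either. Of its 100-base stretches 25.1% also occur in another gene, chiefly Gstp2. Gstt1 averaged 16.9 ± 3.66, 17.3 ± 1.07 and 18.4 ± 1.26 CPM at 2, 12 and 24 months and did not pass.

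Sulfotransferases were few and low, with a summed level of 7.54 ± 1.60 CPM at 2 months, 5.86 ± 0.724 CPM at 12 months and 8.07 ± 0.981 CPM at 24 months (SD, n = 3 each). Sult5a1 measured 2.54, 2.41 and 2.32 CPM at 2 months, 1.24, 1.45 and 1.5 CPM at 12 months and 2.36, 2.59 and 2.62 CPM at 24 months. Its 12-month libraries lay below all others, while 24 and 2 months overlapped. It fell by 0.79 on the log2 scale between 12 and 2 months (SE 0.22, edgeR adjusted p = 0.0424) and rose by 0.85 between 24 and 12 months (SE 0.21, edgeR adjusted p = 0.0443). Neither call held when any 1 of the compared libraries was left out (edgeR adjusted p of 0.0557 to 0.120 for 12 against 2 months and 0.0689 to 0.135 for 24 against 12 months).

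Sult1a1, the main phenol sulfotransferase, measured 1.021, 0.470 and 0.792 CPM at 2 months, 1.60, 1.17 and 0.932 CPM at 12 months and 1.68, 2.11 and 1.47 CPM at 24 months. It rose between 24 and 2 months (log2 fold change 1.19, SE 0.35, edgeR adjusted p = 0.0376), a call that held only without 2-month replicate 1. Its edgeR adjusted p was 0.127 and 0.0948 without 2-month replicates 2 and 3 and 0.0645, 0.119 and 0.0609 without 24-month replicates 1, 2 and 3. Sult1e1, the oestrogen sulfotransferase, averaged 0.792 ± 0.272 CPM at 2 months, 0.553 ± 0.197 CPM at 12 months and 0.986 ± 0.198 CPM at 24 months (SD, n = 3 each). Sult1d1, which sulfates catecholamines in the mouse, had the highest level per kilobase of the family at 1.08, and neither gene passed.

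Ugt8a, the 1 glucuronosyltransferase-family gene tested, adds galactose to ceramide in the making of myelin lipids. It measured 0.0997, 0.382 and 0.0566 CPM at 2 months, 0.723, 0.899 and 0.4999 CPM at 12 months and 0.602, 0.344 and 0.483 CPM at 24 months. The 12-month libraries lay above all 2-month libraries, on 2 to 44 counts per library. No comparison passed (12 against 2 months, log2 fold change 1.99, SE 0.62, edgeR adjusted p = 0.0730). Without 2-month replicate 2, the highest of its age, 12 against 2 months passed (log2 fold change 3.12, edgeR adjusted p = 0.0279), as did 24 against 2 months (2.54, against 1.41 with all libraries, edgeR adjusted p = 0.0363). Ugt1a6a, a glucuronosyltransferase of small phenols, had 0 to 9 counts per library.

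Some differences that did not pass with all 9 libraries passed with 1 left out. Cyp39a1 passed between 24 and 2 months without 24-month replicate 1 (log2 fold change 1.02, edgeR adjusted p = 0.00233), the library within the 2-month range. At 24 months that fit kept only the Elovl3-high libraries, which held the high Cyp39a1 values, so it rests on them. Gsto1 passed between 24 and 2 months without 2-month replicate 1 (edgeR adjusted p = 0.0294) or 24-month replicate 3 (0.0396), and Ces1e between 24 and 12 months without 24-month replicate 1 (edgeR adjusted p = 0.0386). Between 12 and 2 months, Cyp27a1 passed without replicate 1 of either age (edgeR adjusted p = 0.0339 without the 2-month and 0.0431 without the 12-month one). So did Cyp4f16 without 2-month replicate 1 (edgeR adjusted p = 0.0397) or 12-month replicate 3 (0.0358), Ces2g without 2-month replicate 3 (0.0496) and Cyp2e1 without 12-month replicate 1 (0.0443).

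The genes around the 5 families were read from 116 genes in 8 lists, of which 92 were tested. The lists were written with earlier results of these data known, so their shares beside those of all genes are descriptive. Between 24 and 2 months 17 rose and 6 fell (25% against 17.4% of all genes), between 12 and 2 months 5 rose and 5 fell (10.87% against 7.92%) and between 24 and 12 months 7 rose and 3 fell (10.87% against 4.39%). By list, the called share between 24 and 2 months was 12.5% for receptors and regulators, 0% for electron donors and 14.29% for Nrf2 targets. For other conjugating enzymes it was 18.18%, and the shares of the remaining lists are given below. The named genes of the 24 against 2 month comparison held their calls with each library left out, unless said otherwise. Without the 2 Elovl3-high libraries 6 of the 23 were still called, and among the lost ones were Nr1h3, Maob, Aox3, Akr1b8, Hsd17b10, Inmt, Papss1 and Srxn1 (edgeR adjusted p = 0.0656 to 0.431). Between 24 and 12 months Adh7 and Papss2 were not called either (edgeR adjusted p = 0.0636 and 0.0765). Among the receptors and regulators, 8 of 13 were tested and Nr1h3, an oxysterol receptor (LXR alpha), rose, with 2.10 ± 0.430 CPM at 24 months and 0.656 ± 0.207 CPM at 2 months (SD, n = 3 each; log2 fold change 1.68, SE 0.37, edgeR adjusted p = 0.0109). Without the salivary-rich libraries its edgeR adjusted p was 0.0960. Ahr and Nfe2l2, which encode the aryl hydrocarbon receptor and Nrf2, averaged 1.67 ± 0.272 and 16.4 ± 1.73 CPM at 24 months and 1.65 ± 0.219 and 16.9 ± 1.39 CPM at 2 months and passed no comparison. The pregnane receptor gene Nr1i2 was below the count filter. Of 7 Nrf2 targets, Srxn1 rose between 24 and 2 months (log2 fold change 0.56, SE 0.15, edgeR adjusted p = 0.0217), a call lost without 2-month replicate 2 (0.0845), 24-month replicate 1 (0.0553), 24-month replicate 3 (0.0521) or the salivary-rich libraries (0.0855). Hmox1, the haem oxygenase, rose between 24 and 12 months (log2 fold change 0.68, edgeR adjusted p = 0.0486), a call lost without any 1 of the 6 libraries but 24-month replicate 3 (edgeR adjusted p = 0.0775 to 0.140).

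Among 26 tested oxidation enzymes outside the P450s, 5 rose and 3 fell between 24 and 2 months (30.77% called, against 17.4% of all genes). Maob, which oxidises amines, averaged 1.60 ± 0.655 CPM at 24 months and 0.267 ± 0.114 CPM at 2 months (log2 fold change 2.56, SE 0.44, edgeR adjusted p = 0.00311). Adh7, an alcohol dehydrogenase that also oxidises retinol, averaged 4.995 ± 1.22 CPM at 2 months, 3.503 ± 1.08 CPM at 12 months and 0.869 ± 0.423 CPM at 24 months. It fell by 2.53 on the log2 scale between 24 and 2 months (SE 0.36, edgeR adjusted p = 0.00118) and by 2.01 between 24 and 12 months (SE 0.36, edgeR adjusted p = 0.00814), a call lost without the muscle-holding libraries (edgeR adjusted p = 0.198). The aldehyde oxidase Aox3 averaged 79.7 ± 21.7 CPM at 24 months and 41.8 ± 7.54 CPM at 2 months (log2 fold change 0.93, SE 0.17, edgeR adjusted p = 0.00504).

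Both enzymes that make the sulfate donor of the sulfotransferases fell between 24 and 2 months. Papss2 averaged 191 ± 25.8 CPM at 2 months, 174 ± 14.8 CPM at 12 months and 91.7 ± 15.0 CPM at 24 months. It fell by 1.06 on the log2 scale between 24 and 2 months (SE 0.14, edgeR adjusted p = 0.000809) and by 0.93 between 24 and 12 months (SE 0.14, edgeR adjusted p = 0.00361), and without the muscle-holding libraries the second of these had an edgeR adjusted p of 0.118. Papss1 fell by 0.41 between 24 and 2 months (SE 0.11, edgeR adjusted p = 0.0209). That call was lost without 2-month replicates 1 or 2 (edgeR adjusted p = 0.0595 and 0.0517), 24-month replicates 2 or 3 (0.0686 and 0.0788) or the salivary-rich libraries (0.158), and with library totals alone (0.472). These were 2 of 9 tested genes of cosubstrate supply (22.22% called, against 17.4% of all genes).

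Of 17 tested steroid enzymes outside the families, 5 rose and 1 fell between 24 and 2 months (35.29% called, against 17.4% of all genes). Gusb, the lysosomal beta-glucuronidase that removes glucuronic acid from conjugates, averaged 72.0 ± 2.82 CPM at 2 months, 66.2 ± 1.36 CPM at 12 months and 107 ± 6.79 CPM at 24 months (24 against 2 months, log2 fold change 0.58, SE 0.09, edgeR adjusted p = 0.00197). Akr1b8, an aldo-keto reductase, averaged 3.23 ± 0.136 CPM at 24 months and 0.844 ± 0.299 CPM at 2 months (log2 fold change 1.93, SE 0.36, edgeR adjusted p = 0.00470). Hsd17b10, a mitochondrial hydroxysteroid dehydrogenase, averaged 36.2 ± 4.78 CPM at 24 months and 58.0 ± 9.10 CPM at 2 months and fell by 0.68 on the log2 scale (SE 0.14, edgeR adjusted p = 0.00797, and 0.0706 without the salivary-rich libraries). Akr1c18, which inactivates progesterone, averaged 165 ± 8.33 CPM at 2 months, 93.7 ± 31.3 CPM at 12 months and 218 ± 41.5 CPM at 24 months. It fell by 0.82 on the log2 scale between 12 and 2 months (SE 0.20, edgeR adjusted p = 0.0290). That call held only without 12-month replicate 1 and was lost without the salivary-rich libraries (edgeR adjusted p = 0.335). Akr1c18 rose between 24 and 12 months (log2 fold change 1.22, SE 0.20, edgeR adjusted p = 0.00624, and 0.127 without the salivary-rich libraries). Between 24 and 2 months it did not pass (0.40, edgeR adjusted p = 0.202).

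Of 8 tested efflux transporters, 3 rose between 24 and 2 months (37.5% called, against 17.4% of all genes). Abcc3, which exports glucuronides, averaged 6.65 ± 0.613 CPM at 2 months, 7.49 ± 0.0680 CPM at 12 months and 13.1 ± 0.668 CPM at 24 months (24 against 2 months, log2 fold change 0.98, SE 0.11, edgeR adjusted p = 0.000339). Abcb1a, the multidrug exporter P-glycoprotein, averaged 7.59 ± 0.565 CPM at 2 months, 15.5 ± 1.57 CPM at 12 months and 11.7 ± 0.996 CPM at 24 months. It rose between 12 and 2 months (log2 fold change 1.03, SE 0.12, edgeR adjusted p = 0.000643) and between 24 and 2 months (0.62, SE 0.12, edgeR adjusted p = 0.00533, and 0.0728 without the salivary-rich libraries). From the list of other conjugating enzymes, Inmt, a methyltransferase of amines, averaged 6.93 ± 0.355 CPM at 24 months and 3.18 ± 0.881 CPM at 2 months (log2 fold change 1.12, SE 0.19, edgeR adjusted p = 0.00332). From the list of electron donors, Por, the reductase that supplies electrons to every microsomal P450, averaged 132 ± 12.4 CPM at 2 months, 103 ± 15.0 CPM at 12 months and 165 ± 24.6 CPM at 24 months. It rose between 24 and 12 months (log2 fold change 0.68, SE 0.14, edgeR adjusted p = 0.0175), a call lost without 12-month replicates 2 or 3 (edgeR adjusted p = 0.0716 and 0.0588) or 24-month replicate 3 (0.0587). It was also lost with library totals alone (edgeR adjusted p = 0.0617), without the salivary-rich libraries (0.203), without the muscle-holding libraries (0.168) and without the Elovl3-high libraries (0.277).

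**Figure D5:**
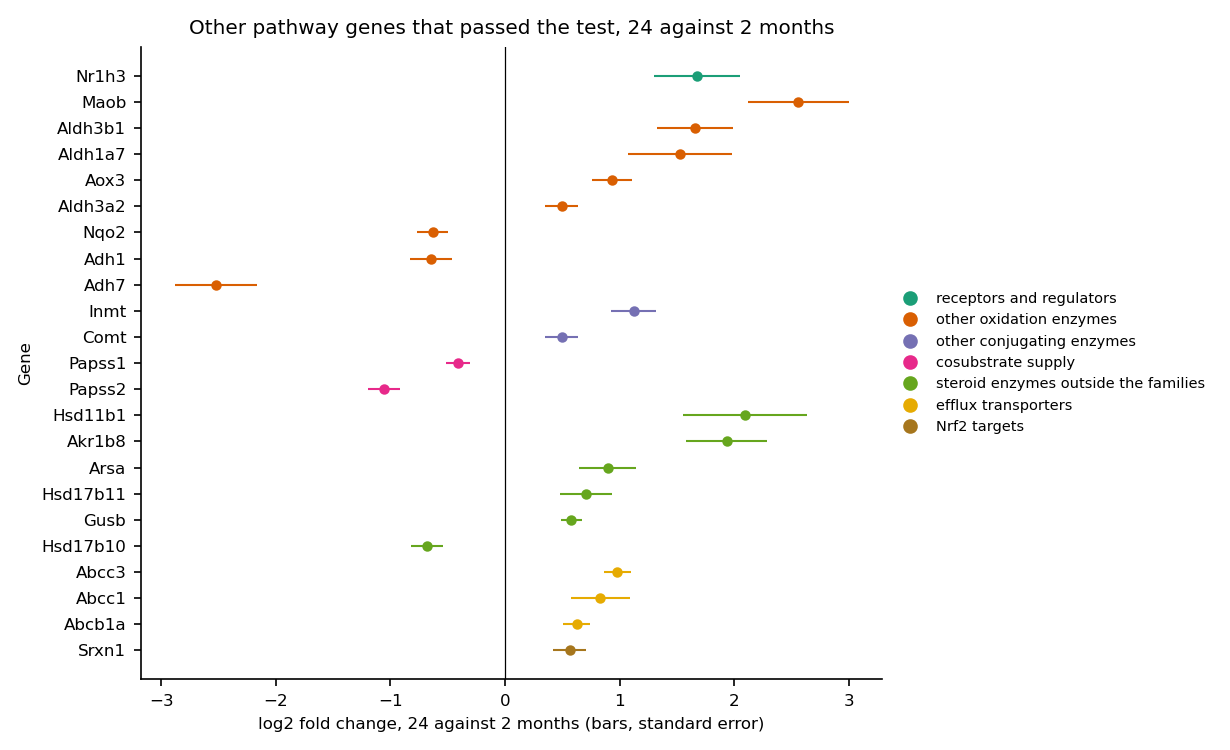
log2 fold change between 24 and 2 months, with its standard error, of the 23 pathway genes outside the 5 families that passed the test, coloured by list. The 17 that rose lie right of 0 and the 6 that fell left of it, from Maob at 2.56 to Adh7 at -2.53.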

How the data were processed

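RNA was measured in 9 lacrimal gland libraries, 3 at each of 3 ages. Per the labels' protocols, total RNA was sequenced as pairs of 100 bp reads. The authors deposited whole-number read counts per gene. The submitters' processing notes name, without versions, DESeq2, HTSeq, STAR, FastQC and cutadapt and the GRCm38 build. The annotation release is not given in the sources used here, nor is the strand setting. Without a stated strand setting, reads of overlapping genes on opposite strands cannot be told apart. The deposited log2 table was not used.

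Depth was 40516863 to 42573877 counts per library. Of 54232 genes, 67 had no symbol in GENCODE M21 with no more than 0.00105% of any library's counts. Gene coordinates and exon lengths came from GENCODE M21, promoters from RefSeq. The 182 genes, the 116 pathway genes and the 13 marker lists were chosen with earlier results of these data known.

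All 9 libraries were fitted with age as a factor (edgeR 4.0.16, R 4.3.3, quasi-likelihood F test, TMM, filterByExpr with a minimum count of 10). There were 6 residual degrees of freedom, and the common biological coefficient of variation came to 21.23%. Benjamini-Hochberg adjustment ran over 14958 genes, and an adjusted p under 0.05 was called. Levels are CPM scaled by TMM; standard errors are those of the log2 fold change. Read sharing is the share of a gene's 100-base stretches found in transcripts of another gene. Members were named by rule: called with a mean of at least 1 CPM at 1 age, the 3 highest per family, and 25 fixed genes. Pathway genes were named from up to 3 called genes of smallest p per list. Tables were made in Python 3.11.15 (pandas 2.3.3, numpy 2.4.6, scipy 1.17.1), figures in matplotlib 3.10.9.

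Alternatives were RLE scaling, library totals alone, 2 other count filters, a replicate block by number, the compared libraries alone, each library left out, the salivary-rich or muscle-holding libraries left out, the Elovl3-high libraries left out (chosen after seeing the data), DESeq2 1.42.0, and stricter thresholds. On simulated data with 200 changed genes among 14958, changes of 1 log2 unit were recovered in 53% (12 against 2 months), 50% (24 against 2 months) and 56% (24 against 12 months), and changes of 2 units in 78, 78 and 73%, in that order. Of the calls made, 4 of 135, 11 of 139 and 9 of 138 were of unchanged genes.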

Additional observations from a re-analysis of the deposited data

How the results depend on the processing

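No call of a named gene reversed under any alternative run. Members called were 7 (12 against 2 months), 13 (24 against 2 months) and 2 (24 against 12 months). With no count filter they were 16, 20 and 8, without the salivary-rich libraries 1, 4 and 0, at an adjusted p under 0.01 1, 3 and 0, and with at least a 2-fold difference 4, 8 and 1. Without the muscle-holding libraries they were 3 between 12 and 2 months and 0 between 24 and 12 months. Between 24 and 12 months library totals alone gave 0, only the compared libraries 1 and DESeq2 4. Without the Elovl3-high libraries, an alternative chosen after seeing the data, members called were 2 between 24 and 2 months and 0 between 24 and 12 months, and pathway genes 7 and 4. Leaving out 1 library gave 2 to 6, 4 to 13 and 0 to 3. Shares of all genes are given above for library totals alone and DESeq2, so the other counts are not a result about the members. The fit without a count filter is not comparable in its p-values. For 12 against 2 months Cyp2b19 had an edgeR adjusted p of 1.01e-35 there and 0.00733 in the main fit (log2 fold change -1.725 and -1.726). Sult5a1 moved the other way, to 0.116 from 0.0424. Pathway genes called were 10, 23 and 10. They were 1, 11 and 3 without the salivary-rich libraries, 1, 12 and 6 under 0.01, and 5, 9 and 3 with at least a 2-fold difference. Without the muscle-holding libraries they were 5 between 12 and 2 months and 1 between 24 and 12 months, where library totals alone gave 6, no filter 21 and DESeq2 20. Leaving out 1 library gave 1 to 8, 14 to 21 and 7 to 14. Same-numbered libraries correlated by -0.155 to 0.0602 in their deviations from the age means and others by -0.191 to 0.228. These values gave no sign of pairing by number, but with 3 libraries per age they cannot exclude shared handling. With the replicate number as a block, members called were 3, 9 and 1 and pathway genes 3, 18 and 6. The causes of these shifts were not tested, beyond fewer libraries or genes where an alternative leaves them out. The depth limits genes of a few counts, such as Cyp2e1 and the Ugt genes.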
